A study of Mus musculus with 12 samples.

Results

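Prrx1 encodes the paired-related homeobox 1 protein, a transcription factor of embryonic mesenchyme and stromal fibroblasts that helps to shape limbs and face. Its gene lies on the minus strand of mouse chromosome 1, from 163245119 to 163313710 (build mm10, 68.6 kb), so that lower coordinates lie downstream. Accessibility was measured by ATAC-seq, in which the Tn5 transposase inserts adapters into open DNA and reads pile up as peaks at promoters, enhancers and other exposed sites. The locus was taken as the gene body plus 100 kb on each side, 163145119 to 163413710, and its peaks were chosen by position alone. It holds 42 of the 176680 peaks in the table of accessibility, or 15.6 peaks per 100 kb over 269 kb. The gene itself was chosen for description because its promoter peak had already been seen to be much lower with Prox1 in these same data, so the values below are a description with no test. ATAC-seq does not show which gene a peak regulates. Peaks away from start sites are therefore called distal peaks, and whether any of them is an enhancer of Prrx1 was not tested.

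The cells were primary fibroblasts (MEFs) of wild-type C57BL/6N embryos at E13.5, prepared as a mixed culture from the distal limbs of pooled embryos. Limb mesenchyme is a tissue in which Prrx1 is known to be active. All groups were given rtTA, the doxycycline-dependent activator, and 2 ug/mL doxycycline up to day 2. The study holds 4 groups of 3 libraries each, which are MEF (rtTA alone), Prox1_OE (Prox1), 4in1_GFP_OE (the 4in1 vector of liver transcription factors plus GFP) and 4in1_Prox1_OE (the 4in1 vector plus Prox1). The table compares the last of these groups with 4in1_GFP_OE and rests on 6 libraries, and the other libraries were not analysed here. The comparison asks how adding Prox1, a homeobox factor of hepatocytes, changed open chromatin in fibroblasts being driven towards a liver fate. Lentiviral transduction need not reach every cell of a culture, and in such bulk samples fewer open cells and less openness per cell cannot be told apart.

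Each value below is the authors' group mean for 1 peak, as the log2 of normalized reads, and a difference is 4in1_Prox1_OE minus 4in1_GFP_OE on that log2 scale, where -1 is a halving. The table gives no value per library, so no SD, replicate check or test was computed here, and the depth of the libraries is unknown. The authors' own test per peak, which stands in the same table, was set aside. Peaks close in level could not be ranked against replicate error for the same reason. All 42 peaks are 201 bases wide, so that their levels can be set side by side. Positions are distances from the Prrx1 start site at 163313710, with minus for upstream and plus for the direction of transcription.

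Several facts of the whole table bear on these values. The median difference of all peaks was -0.42, with quartiles of -0.99 and 0.07, and summed normalized reads over all peaks were 0.751 times as high with Prox1. Zero is therefore not the centre of the table, and whether this shift is biological or comes from scaling was not tested. At the Prox1 gene, as a check of the labels, the peaks over coding exons at 190123211, 190146958 and 190160680 of chromosome 1 were higher in 4in1_Prox1_OE by 8.90, 7.23 and 8.73. Reads from the vector and from the chromosome cannot be told apart there. All 8 fibroblast markers had a promoter peak (levels of 7.28 to 9.61 in 4in1_GFP_OE, median difference -0.41), while the 4 hepatocyte and 2 blood markers had none. Of the endothelial markers, Cdh5 had none, and the Pecam1 promoter peak was at 8.25 and 6.65, a difference of -1.59. The epithelial Epcam promoter peak was at 7.60 and 8.60, and that of Cdh1 was at 7.54 and 7.67. The part of other cell types in the Prrx1 values was not tested.

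The DNA under some of the peaks that set the pattern of the locus is shown next, as the plus strand of GRCm38 (the same assembly as mm10) from 5′ to 3′. The peaks at -68.9, +149, +40.4 and -13.8 kb were among the 5 with the largest differences downwards, and the first of them was also the strongest distal peak of the locus in 4in1_GFP_OE. The peak at +156 kb had the largest difference upwards. Their coordinates are, in that order, chr1:163382508-163382708, chr1:163165024-163165224, chr1:163273260-163273460, chr1:163327403-163327603 and chr1:163157249-163157449. The +40.4 kb peak lies in the first intron of Prrx1 and the other 4 between genes. Capitals mark matches to the AP-1 motif TGANTCA, the TEAD motif GGAATG and the homeodomain motif TAATTA.
Peak at -68.9 kb: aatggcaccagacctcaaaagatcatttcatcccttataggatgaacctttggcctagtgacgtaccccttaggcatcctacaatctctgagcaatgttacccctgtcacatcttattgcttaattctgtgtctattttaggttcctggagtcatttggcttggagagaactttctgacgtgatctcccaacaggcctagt
Peak at +149 kb: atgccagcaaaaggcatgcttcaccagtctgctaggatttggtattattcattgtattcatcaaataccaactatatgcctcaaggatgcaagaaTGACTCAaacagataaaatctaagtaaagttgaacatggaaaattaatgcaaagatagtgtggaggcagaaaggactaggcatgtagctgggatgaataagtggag
Peak at +40.4 kb: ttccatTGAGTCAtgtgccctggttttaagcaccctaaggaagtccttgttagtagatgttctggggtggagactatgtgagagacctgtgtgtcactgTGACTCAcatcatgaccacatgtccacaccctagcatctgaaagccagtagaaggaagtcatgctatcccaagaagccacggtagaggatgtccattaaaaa
Peak at -13.8 kb: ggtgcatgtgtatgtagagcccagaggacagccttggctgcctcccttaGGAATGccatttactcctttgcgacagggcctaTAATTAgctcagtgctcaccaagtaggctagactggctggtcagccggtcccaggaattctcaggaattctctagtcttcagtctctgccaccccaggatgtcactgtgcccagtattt
Peak at +156 kb: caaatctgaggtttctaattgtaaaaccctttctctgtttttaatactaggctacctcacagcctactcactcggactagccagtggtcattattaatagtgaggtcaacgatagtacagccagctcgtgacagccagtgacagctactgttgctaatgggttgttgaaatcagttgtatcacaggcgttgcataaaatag
AP-1 dimers of FOS and JUN proteins and the TEAD factors of the Hippo pathway bind many enhancers in fibroblasts. The +149 kb peak held an AP-1 match at bases 96 to 102, almost at its centre, and the +40.4 kb peak held a pair, at bases 7 to 13 and 100 to 106. The -13.8 kb peak held a TEAD match at bases 50 to 55 and TAATTA at bases 83 to 88. The -68.9 and +156 kb peaks held none of these letters. Of the 5 peaks with the largest differences downwards, 3 held at least 1 of the marked motifs and 2 held none.

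Around Prrx1, 39 of 42 peaks were lower with Prox1 (92.9%; 72.3% of all peaks were lower), and 3 were higher. Of the 42, 19 were lower by at least 1 (45.2%; 24.4% of all peaks) and 0 were higher by at least 1 (8.33% of all peaks). The median difference was -0.94, with quartiles of -1.26 and -0.41, and the median level was 7.24 in 4in1_GFP_OE and 6.45 in 4in1_Prox1_OE. Summed over the locus, normalized reads were 7519 and 4373, a ratio of 0.582. Differences ran from -1.76 to 0.83. There were 6 peaks at or below -1.5 (6.35% of all peaks were lower by at least 1.5), 13 more at or below -1, 12 more at or below -0.5 and 8 more up to 0. Counted at 0.5, 31 peaks were lower (46.2% of all peaks) and 1 was higher (14.8% of all peaks). The locus was thus lower over most of its length, with a few peaks in each region that differed little, as the map of levels by position shows.

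**Figure D1:**
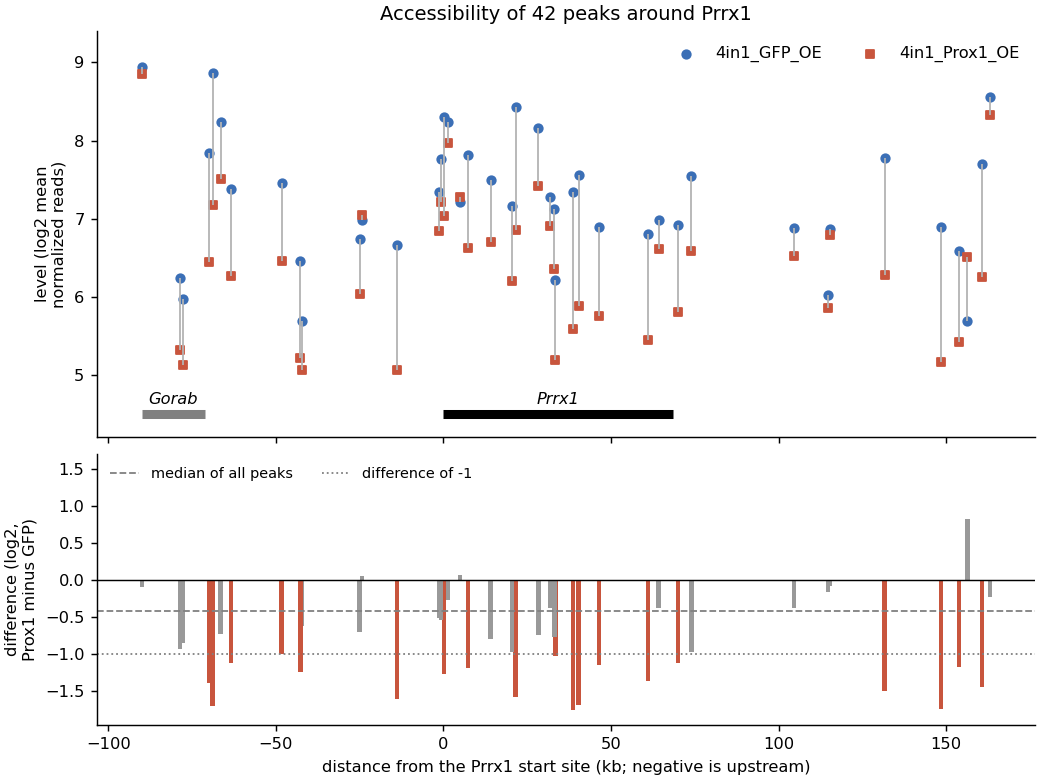
Upper panel, level (log2 of mean normalized reads) of each of the 42 peaks in 4in1_GFP_OE (circles) and 4in1_Prox1_OE (squares) against the distance from the Prrx1 start site in kb, with gene bodies as bars. Lower panel, the difference of each peak, red where it is -1 or lower, with the median of all peaks (-0.42) dashed. The 19 red bars are spread from -70.0 to +161 kb, and the peak at +156 kb stands highest at 0.83.

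At the start of the gene, the peak that covers the noncoding leader of exon 1 (chr1:163313505-163313705, annotated as UTR) was at 8.31 in 4in1_GFP_OE and 7.03 in 4in1_Prox1_OE. Its difference was -1.27, from 317 to 131 normalized reads (0.414 times). It ranked 5 of the 42 in level in 4in1_GFP_OE and 10 in 4in1_Prox1_OE. The other promoter peak, within 1 kb of the start site at -0.792 kb, was at 7.76 and 7.22, a difference of -0.54. Together the pair summed to 533 and 280 normalized reads, a ratio of 0.525. A pair of further peaks lies close by, and both differed less than the exon 1 peak. At +1.43 kb, where intron 1 begins, the level was 8.23 and 7.96 (difference -0.27). At -1.34 kb it was 7.35 and 6.84 (difference -0.51). The exon 1 peak was the strongest of these 4 in 4in1_GFP_OE, and the intron 1 peak was the strongest in 4in1_Prox1_OE. Counted from the strongest peak by mean level within 2 kb, the promoter value would be that of the intron 1 peak, -0.27, so the size at the promoter depends on which peak stands for it.

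The gene body held 15 peaks besides the promoter pair, all in introns of Prrx1 and 13 of them in intron 1. Of the 15, 14 were lower (93.3%; 72.3% of all peaks), 7 of them by at least 1 (46.7%; 24.4% of all peaks), with a median difference of -0.97 and a ratio of sums of 0.557 (2705 and 1507 normalized reads). The strongest was at +21.5 kb, at 8.43 and 6.85, a difference of -1.58 that took it from rank 4 to rank 12. The +38.6 kb peak was at 7.34 and 5.58, and its difference of -1.76 (162 to 47.9 normalized reads, 0.296 times) was the largest of the locus. Its neighbour at +40.4 kb, which holds the pair of AP-1 matches, was at 7.55 and 5.87 (difference -1.68). These 2 peaks lie 1531 bases apart, and both dropped below the median level of the locus in 4in1_Prox1_OE.

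The other gene body peaks with a difference of -1 or lower lie on both sides of them. At +7.25 kb the level was 7.81 and 6.62 (difference -1.19). At +33.4 kb, over an exon of the noncoding gene Gm20471 inside Prrx1, it was 6.21 and 5.19 (difference -1.02). Farther in, the peak at +46.4 kb was at 6.90 and 5.75 (difference -1.15) and that at +61.0 kb was at 6.80 and 5.45 (difference -1.36). These 4 had levels of 7.81 or less in 4in1_GFP_OE, below that of the exon 1 peak.

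The other 8 gene body peaks differed by less than 1. Between -0.7 and -1 were the peaks at +14.0 kb (7.49 and 6.70, difference -0.79), +20.4 kb (7.16 and 6.19, difference -0.97), +28.3 kb (8.16 and 7.42, difference -0.74) and +33.1 kb (7.12 and 6.36, difference -0.76). Nearer to 0 were the peaks at +31.8 kb (7.27 and 6.90, difference -0.37), +64.2 kb (6.98 and 6.61, difference -0.38) and +1.43 kb (given above). The 1 gene body peak that was higher lies at +4.93 kb over an exon of the unnamed gene model Gm37644, at 7.21 and 7.28 (difference 0.07). Along intron 1, the 4 neighbouring peaks from +46.4 to +33.4 kb were all at -1 or lower, and the next 3, from +33.1 to +28.3 kb, were not.

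The upstream flank held 14 peaks, of which 13 were lower (92.9%; 72.3% of all peaks) and 6 lower by at least 1 (42.9%; 24.4% of all peaks), with a median difference of -0.89. The strongest distal peak of the whole locus stands here, at -68.9 kb. It was at 8.87 and 7.17, a difference of -1.70 (467 to 144 normalized reads, 0.308 times). Its share of all normalized reads of the locus was 6.22% in 4in1_GFP_OE and 3.29% in 4in1_Prox1_OE, and its rank in level went from 2 to 8. It forms a cluster of 4 with the peaks at -63.3, -66.5 and -70.0 kb, whose differences were -1.12 (7.38 and 6.26), -0.73 (8.24 and 7.51) and -1.39 (7.84 and 6.44). Beyond this cluster lies Gorab, a gene for a golgin of the Golgi apparatus, where peaks over an intron (-77.7 kb) and coding sequence (-78.7 kb) differed by -0.85 and -0.93.

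The Gorab promoter peak itself, at -90.0 kb, was the strongest of the 42 in both groups. It was at 8.94 and 8.85, a difference of -0.09, so that its share of the normalized reads of the locus was 6.52% and 10.5%. Without it the upstream flank had a ratio of sums of 0.505, against 0.587 with it. Nearer to Prrx1, the -13.8 kb peak was at 6.66 and 5.06 (difference -1.60, 101 to 33.4 normalized reads), the largest difference within 20 kb upstream. Farther peaks at -42.7 and -48.3 kb differed by -1.24 (6.46 and 5.22) and -1.0 (7.46 and 6.46). Those at -25.0 and -42.1 kb differed by -0.70 (6.73 and 6.03) and -0.62 (5.68 and 5.06). The peak at -24.2 kb was at 6.98 and 7.04, the smallest difference in size of the 42 (0.06), although the next peak lies only 579 bases from it.

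The downstream flank held 11 peaks between genes. Of these, 10 were lower (90.9%; 72.3% of all peaks), 5 by at least 1 (45.5%; 24.4% of all peaks), with a median difference of -0.96 and a ratio of sums of 0.631. The largest difference was at +149 kb, from 6.89 to 5.16 (-1.73; 119 to 35.6 normalized reads), in the peak with the central AP-1 match. Next were +132 kb (7.78 and 6.28, difference -1.49) and +161 kb (7.69 and 6.26, difference -1.44). The peaks at +154 and +70.0 kb differed by -1.17 (6.59 and 5.42) and -1.12 (6.92 and 5.80), and that at +74.0 kb by -0.96 (7.55 and 6.58).

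The remaining downstream peaks include those with the least difference within this flank. The last peak of the locus, at +163 kb, was at 8.56 and 8.33 (difference -0.23). It ranked 3 of 42 in 4in1_GFP_OE and 2 in 4in1_Prox1_OE. A pair of neighbours at +115 kb was at 6.87 and 6.79 (difference -0.08) and at 6.02 and 5.86 (difference -0.17), and the peak at +105 kb was at 6.88 and 6.51 (difference -0.37). The 1 peak higher by more than 0.5 was that at +156 kb, at 5.68 and 6.51 (difference 0.83; 51.3 to 91.3 normalized reads, 1.78 times). In 4in1_GFP_OE it ranked 41 of 42 and in 4in1_Prox1_OE it ranked 20, with peaks that differed by -1.44 and -1.17 on either side.

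At the ends of the locus, the first peak inside the downstream border lies 5.43 kb within it and is the +163 kb peak. The nearest peak outside, 7.85 kb beyond, was at 5.68 and 6.41. Inside the upstream border, the Gorab promoter peak lies 9.90 kb within, and the nearest peak outside, 0.705 kb beyond, was at 6.19 and 5.51. From 100 to 500 kb away, 15 of 39 upstream peaks (38.5%) and 12 of 33 downstream peaks (36.4%) were lower by at least 1 (27.4% of peaks on chromosome 1; 24.4% of all peaks), with median differences of -0.86 and -0.83. Those values lie between the medians of the locus and of chromosome 1 (-0.51 over 12602 peaks), so a low median was also found in the surroundings of the locus.

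Distal peaks made up 36 of the 42, counted as peaks over 1 kb from the start site of any gene. Of the 36, 17 were lower by at least 1 (47.2%; 26.7% of all 154465 distal peaks), with a median difference of -0.97 and a ratio of sums of 0.547. Over all distal peaks the median was -0.49 and the ratio 0.716. Distal peaks at large were thus also below the median of the table, and the median of the locus lay below theirs. The plot of the distribution of differences sets the 42 peaks against all peaks.

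**Figure D2:**
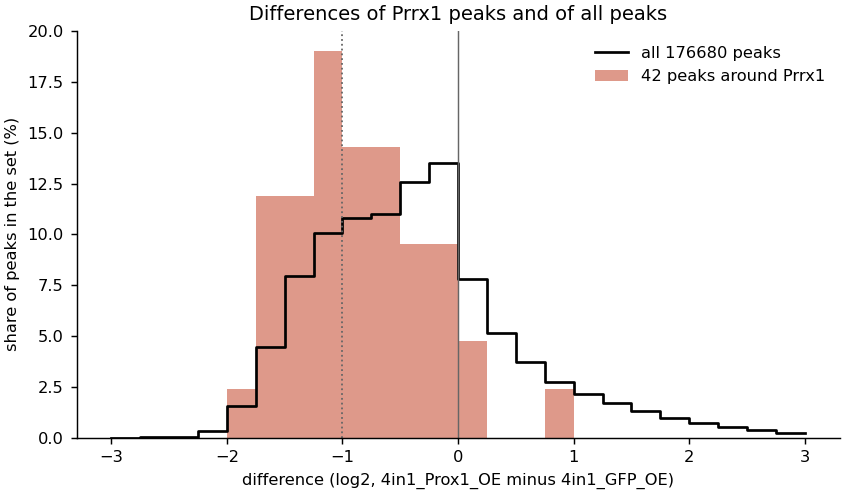
Share of peaks (%) in each bin of 0.25 of the difference (log2, 4in1_Prox1_OE minus 4in1_GFP_OE), for the 42 peaks around Prrx1 (filled) and all 176680 peaks (line), with 683 of all peaks at 3 or above not drawn. The Prrx1 peaks lie to the left, with a median of -0.94 against -0.42.

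Because 0 is not the centre of the table, the peaks were also set against other centres. Relative to the median of all peaks, 8 of the 42 were lower by at least 1 (8.64% of all peaks) and 31 were lower by any amount (50.0% of all peaks). With both groups scaled to equal totals over all peaks the counts were 8 (8.80% of all peaks) and 31 (50.2% of all peaks). Relative to the 10% of peaks with the highest mean level they were 11 (13.9% of all peaks) and 35 (58.0% of all peaks). The +156 kb peak then passed 1 upwards under all 3 centres. The peaks that turned from lower to higher, 8, 8 and 4 in number, had differences of -0.38 or nearer to 0 as deposited, while a peak at -1 or lower could not turn under shifts of this size. At the exon 1 peak the difference was -0.85, -0.86 and -1.01 under the 3 centres.

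Split by content of G and C, the richest peaks had a median difference smaller in size than the others. This split was chosen after the values were seen. The 5 peaks with at least 60% G and C were those at +4.93, +1.43, -0.792 and -1.34 kb and the Gorab promoter peak. Their differences ran from -0.54 to 0.07 with a median of -0.27, and 0 of 5 were lower by at least 1 (1.73% of all peaks of that GC content). Among the other 37 peaks, 19 were lower by at least 1 (27.0% of all peaks under 60% GC) and the median was -1.0. The order was the same over the whole table, where the median was -0.15 in 18570 peaks of at least 60% GC and -0.51 in the other 158110. The exon 1 peak of Prrx1 had a GC content of 48.8%, below all 3 of its near neighbours. As a description across peaks of the same libraries, GC content and the difference had a Pearson r of 0.24 and a Spearman rho of 0.14 over the 42 (0.17 and 0.25 over all peaks). Mean level and difference had an r of 0.08 and a rho of 0.07, where all peaks gave values of the opposite sign (-0.22 and -0.18). Levels in the 2 groups went together (r 0.77 and rho 0.75, against 0.70 and 0.69 over all peaks), so that strong peaks in 4in1_GFP_OE were mostly strong in 4in1_Prox1_OE.

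Each peak was searched for short motifs in both orientations. A match describes letters, not a bound site. AP-1 (TGANTCA, a palindrome) was found in 9 of the 42 (21.4%; 28.8% of all 201-base peaks). These were the peaks at +149, +132, +70.0, +46.4, +40.4, +21.5, -42.7, -66.5 and -70.0 kb, of which all but that at -66.5 kb were lower by at least 1. Their median difference was -1.39, against -0.76 in the 33 without, where 11 were lower by at least 1. Over all peaks the medians were -0.82 with and -0.29 without AP-1 and the shares lower by at least 1 were 39.8% and 18.2%, so the order was that of the whole table. In 4 of the 9 the match lay within 25 bases of the peak centre, a distance chosen after the values were seen (44.4%; 47.2% of all peaks with AP-1).

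TEAD (GGAATG) was also found in 9 peaks (21.4%; 20.1% of all peaks), with medians of -1.19 with and -0.76 without (-0.64 and -0.37 over all peaks). AP-1 or TEAD stood in 16 peaks, 13 of them lower by at least 1 (median -1.22), and in the 26 with neither 6 were (median -0.66). The order was again that of all peaks, where 35.9% with either motif (median -0.73) and 15.6% with neither (median -0.25) were lower by at least 1. The peaks at -42.7 and -70.0 kb held both. The homeodomain letters TAATTA, a palindrome that many homeobox proteins recognise, stood in 4 peaks (9.52%; 2.84% of all peaks), at +161, -13.8 and -1.34 kb and in the exon 1 peak. Of these 4, 3 were lower by at least 1 and their median was -1.35, while over all peaks 26.1% with TAATTA and 24.3% without were lower by at least 1 (medians -0.50 and -0.42). The RUNX letters TGTGGT stood in 8 (19.0%; 18.5% of all peaks), with medians of -0.82 with and -0.98 without. That order is the reverse of the order over all peaks (-0.47 and -0.41), but it rests on 8 peaks and was not tested. E-boxes (CANNTG, a palindrome that can overlap others) stood in 26 (61.9%; 68.9% of all peaks), with medians of -0.86 with and -0.97 without (-0.41 and -0.43 over all peaks). Neither the FOXA letters TGTTTAC (2.65% of all peaks) nor the Prox1 consensus with up to 1 mismatch (0.305%) stood in any of the 42, which says only that these letters are not in these windows.

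To place the locus among others, the same window of gene body plus 100 kb was drawn around 3 genes. Prrx2, the paralogue of Prrx1 on chromosome 2, had 49 peaks, with a median difference of -0.25 and a ratio of sums of 0.806. Of these, 6 were lower by at least 1 (12.2%; 24.4% of all peaks) and 1 was higher by at least 1 (8.33% of all peaks). Pparg, the nuclear receptor of fat cells on chromosome 6, had 41 peaks, with a median of -0.75 and a ratio of 0.620. Of these, 15 were lower by at least 1 (36.6%) and 0 were higher by at least 1, while 36 were lower by any amount. Myc, a driver of growth on chromosome 15, had 21 peaks, with a median of -0.54 and a ratio of 0.704. Of these, 3 were lower by at least 1 (14.3%) and 1 was higher by at least 1. The Prrx1 median of -0.94 and ratio of 0.582 were the lowest of the 4, with Pparg next, and these differences were not tested. The plot by locus shows that the ranges of all 4 overlapped.

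**Figure D3:**
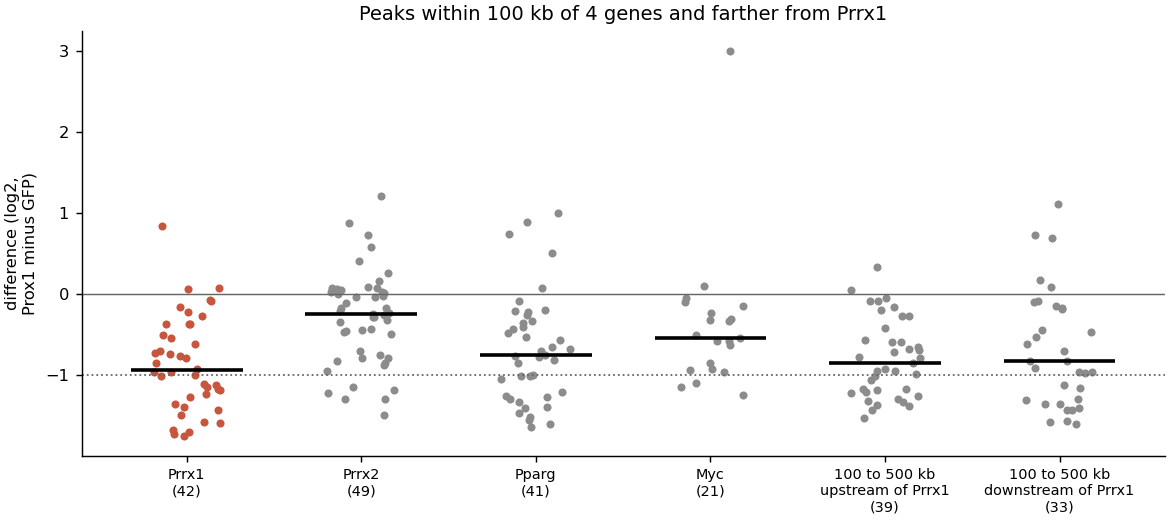
Difference (log2, 4in1_Prox1_OE minus 4in1_GFP_OE) of each peak within 100 kb of Prrx1, Prrx2, Pparg and Myc and from 100 to 500 kb on either side of Prrx1, with the number of peaks in brackets, 1 point a peak and bars at the medians. The median is lowest at Prrx1 (-0.94) and highest at Prrx2 (-0.25).

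Among the 14065 protein-coding genes with at least 20 peaks in such a window, 135 (0.960%) had a median at or below that of Prrx1, where the median gene was at -0.30. For the share of peaks lower by at least 1, 196 genes (1.39%) reached 45.2% or more, and the median gene was at 17.2%. These windows overlap between neighbouring genes and Prrx1 was chosen on the same comparison, so its place among them is a description and supports nothing. At promoters the strongest peak within 1 kb of a start site was read for 15152 protein-coding genes. The median promoter difference was -0.19, with 2.70% of promoters lower and 1.17% higher by at least 1. The -1.27 of Prrx1 is the value for which the gene was chosen, so its rank is not given.

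Prrx1 was then set beside 20 other transcription factor genes of embryonic mesenchyme, all of which had a promoter peak. Of the 20, 19 were lower by any amount (82.9% of all promoters read), 1 was lower by at least 1 (2.70%) and 0 were higher by at least 1 (1.17%), with a median difference of -0.40 and a range of -1.05 to 0.13. The 1 past -1 was Lhx9, a LIM-homeobox gene of limb and gonad, at 8.92 and 7.87. Snai2, which encodes a repressor of epithelial genes, was at 9.13 and 8.21 (difference -0.92). Prrx2 was at 8.87 and 8.44 (difference -0.43). Promoters of the limb regulators Tbx4 and Tbx5 differed by -0.64 and -0.36, and those of the mesenchymal factors Twist1 and Twist2 by -0.30 and -0.51. Near 0 were Zeb1 (-0.07), Zeb2 (-0.00), Meox1 (-0.01), Foxf1 (-0.08) and Tcf21 (0.13).

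By its exon 1 peak, the value for which it was chosen, Prrx1 differed by more than each of the 20, which the choice itself favours. Its promoter summed over 1 kb (-0.93) differed by less than the Lhx9 peak, and the strongest Prrx1 peak within 2 kb differed by -0.27. In 4in1_GFP_OE its promoter peak was in the lower part of the list, with 13 of 20 genes above it, and in 4in1_Prox1_OE 19 of 20 were above it. Tcf21, at 6.63, was the 1 gene below. The plot of promoter levels gives both values for each gene. With the same reading, the promoter peak of Pparg was at 8.95 and 8.74 (difference -0.22) and that of Myc at 9.33 and 8.37 (difference -0.96).

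**Figure D4:**
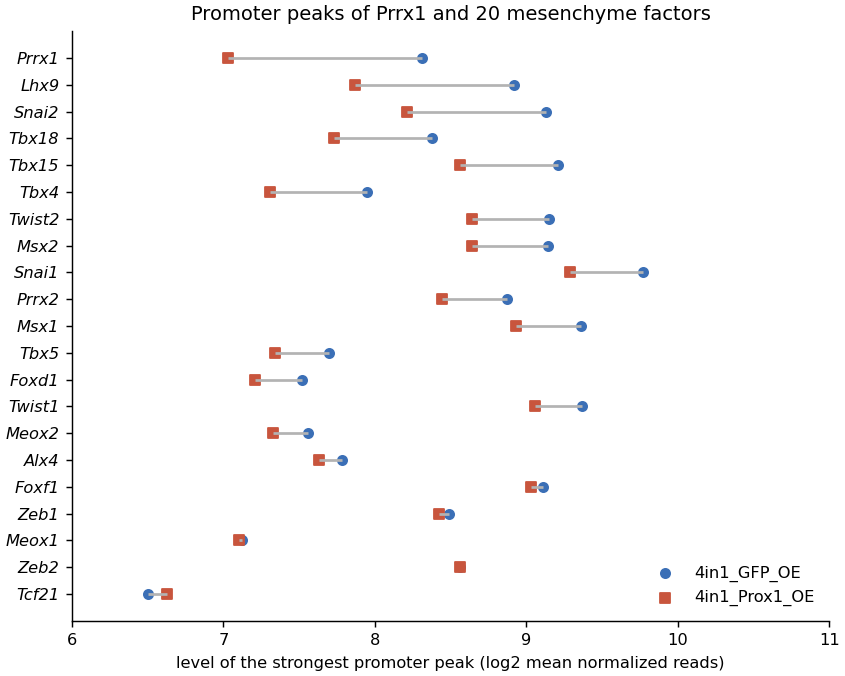
Level (log2 of mean normalized reads) of the strongest promoter peak of Prrx1 and of 20 mesenchyme factors in 4in1_GFP_OE (circles) and 4in1_Prox1_OE (squares), ordered by the difference. Prrx1 spans 8.31 to 7.03, the widest gap, and Tcf21 is the 1 gene with a higher level in 4in1_Prox1_OE.

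The 5 protein-coding genes whose promoter peak was most like that of Prrx1, by Euclidean distance over the 2 group levels, were I0C0044D17Rik (8.30 and 7.01, distance 0.028), Spp1 (8.34 and 7.01, distance 0.042), Fam71f1 (8.28 and 7.07, distance 0.044), Ifi211 (8.37 and 7.06, distance 0.070) and Sh3tc1 (8.25 and 6.98, distance 0.077). Spp1 encodes osteopontin, a secreted protein of bone and stroma, and Ifi211 belongs to the interferon-inducible family. A likeness over only 2 group means is a weak one, and differences of this size between genes could not be set against replicate error.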

How the data were processed

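ATAC-seq was made from 12 libraries of MEFs. Per the study's methods and the submitters' processing notes, reads were trimmed with Trimmomatic 0.38, aligned to mm10 with Bowtie2 2.3.4.3, filtered with SAMtools 1.10, Picard 2.18.16 and bedtools 2.27.1, and counted in peaks with DiffBind 3.4.11. MACS2 2.1.2 is given as the peak caller in the methods but Genrich in the reporting summary, and which was used is uncertain. For the comparison the methods point to the DiffBind vignette. The scaling setting, and whether peaks were called per library, are not given in the sources used here. The authors deposited, per peak, log2 values of mean normalized reads over both groups and in each group of 3 libraries. Their own fold change, p-value and FDR columns and a pair of lists of called regions hold their comparison and were not used.

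Differences, counts, medians and sums of normalized reads (2 to the power of the log2 values) were computed here with Python 3.11.15, numpy 2.4.6, pandas 2.3.3 and scipy 1.17.1, and drawn with matplotlib 3.10.9. Genes came from GENCODE M21 (basic) and sequence from GRCm38 in RefSeq. Of all peaks, 8 are wider than 201 bases (up to 391) and were left out of the motif search. Sequences are printed for 5 peaks, and that of 1 more which the rule for sequences names is not reported here. Counting was tested on simulated data. The rule for values took the promoter and gene body peaks, the 5 strongest, the 3 largest and 3 smallest differences, those higher by at least 0.5 and those at the borders, and the other peaks are given too. Members, gene lists and comparisons were chosen with earlier results of these data known. Alternatives were the centre, window, threshold, low-level filter and promoter rule.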

Additional observations from a re-analysis of the deposited data

How the results depend on the processing

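Under each centre, window and filter tried, the median difference of the Prrx1 peaks and the log2 ratio of sums stayed below 0, as did the promoter difference under the 3 centres and both other promoter rules. The median of -0.94 became -0.53 when centred on the median of all peaks or scaled to equal totals and -0.68 when centred on the 10% strongest peaks. It was -0.99 in the gene body with the exon 1 peak, -0.79 with 50 kb flanks, -0.97 without the 25% of peaks lowest in level and -0.97 without peaks near other start sites. The count of 19 peaks lower by at least 1 became 8, 8 and 11 under the 3 centres, 8 in the gene body, 12 with 50 kb flanks, 31 at a threshold of 0.5 and 6 at 1.5. The count of 0 higher became 1 under each of the 3 centres and at 0.5. The log2 ratio of sums, -0.78, became -0.36, -0.37 and -0.52 under the centres, -0.88 in the gene body, -0.79 with 50 kb flanks and -0.87 without other start sites. The promoter difference, -1.27, became -0.85, -0.86 and -1.01 under the centres, -0.27 at the strongest peak within 2 kb and -0.93 summed over 1 kb. The centres differ from 0 by -0.42, -0.41 and -0.26 by construction, and fewer peaks enter the smaller windows. No replicate could be left out. No paired analysis was possible because only group means, without values per library, are in the table. The depth is unknown, so the precision of weak peaks such as those at 5.06 cannot be stated.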
